A study of Mus musculus with 6 samples.

Results

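Kinases that control actin filaments were followed in cultured mouse cerebellar granule cells (GCs) after knockdown (KD) of Ythdf2. They are Pak1, Pak2, Pak3, Pak4, Pak6, Limk1, Limk2, Rock1 and Rock2, with Cfl1, the substrate on which these kinases converge, and they make up 10 of the 53421 genes in the deposited table of read counts. The genes were found by their Ensembl identifiers in the GRCm38 annotation (GENCODE M21). They were put together as the family around Pak6 after the fold changes of this same comparison had been seen, so the changes below describe a chosen set and are no independent test of it. GCs of C57BL/6 pups, given as postnatal day 8 in the labels and as day 6 to 8 in the study's methods, received a lentiviral hairpin that targets Ythdf2 (shYthdf2) or a control (shCtrl), with 3 libraries in either group, and all were selected with puromycin. The library names give hairpin number 3 for shYthdf2, so 1 hairpin stands for the KD. They number the libraries 1, 2 and 4 in each group. The study's methods call the 3 libraries of a group biological replicates, without saying which culture or animals each came from. The study was about how readers of m6A, a methyl mark on mRNA, act on axon growth, and YTHDF2 is the reader best known for speeding the decay of marked mRNAs.

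The labels of the samples contradict each other, since the libraries named for the Ythdf2 hairpin are titled as wild type and those named for the control as KD. The library names were followed. Were the titles right, every direction below would turn round. Ythdf2 itself had 499.6, 401.3 and 499.7 normalized counts in shYthdf2 libraries 1, 2 and 4, and 616.7, 838.7 and 626.8 in shCtrl libraries 1, 2 and 4. All libraries named for the Ythdf2 hairpin were thus below all those named for the control, with a mean of 67.3% of shCtrl. The fitted log2 fold change was -0.57 (SE 0.16, adjusted p = 0.125 by edgeR's quasi-likelihood test). Normalized counts are the deposited counts scaled by TMM factors to a common library size. The 6 libraries held 17246821 to 21546595 counts, and the 17214 genes with enough counts were tested.

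Library 2 stood apart in both groups. Libraries 1 and 4 differed from each other by a chi-square per degree of freedom of 4.68 in shCtrl and 3.34 in shYthdf2, against 33.1 to 55.3 for every pair that held library 2. Sampling noise alone gives about 1, so libraries 1 and 4 were not 1 library deposited again. They entered the tests as separate replicates on the word of the methods, since this comparison does not show whether they share a culture. Their closeness bears on each result. For the members, values without the number 2 libraries, and with libraries 1 and 4 of a group summed, are given where they change a call.

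The p21-activated kinases (Paks) are switched on or steered by the GTPases Rac and Cdc42. Group I Paks (Pak1, Pak2 and Pak3) are held inactive by their own regulatory domain until a GTPase binds, and group II Paks (Pak4, Pak6 and Pak7, the gene also called Pak5) are controlled in other ways. Rock1 and Rock2 raise myosin contraction. Paks and Rock1 and Rock2 phosphorylate the Lim kinases, which phosphorylate cofilin and so stop it from severing actin filaments. In neurons this chain sets actin turnover in growth cones and dendritic spines.

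The promoters of Pak6 and Limk1, the members that were furthest below shCtrl, and of Pak1, the Pak with the most reads, are shown so that their start regions can be set side by side. The sequences come from the RefSeq promoter table of GRCm38.p6, in which 15 windows of 300 bases matched 8 of the 10 members. Pak2 and Rock1 were not matched. In the GRCm38 annotation Pak6 spans chr2:118663303-118698020 on the plus strand, Limk1 chr5:134656039-134688598 on the minus strand and Pak1 chr7:97788541-97912381 on the plus strand. Printed here are the 250 bases before each start and 20 bases from the start on, read 5′ to 3′ on the gene's strand. Capitals mark the letters TGACGTCA (a cyclic AMP response element), TGACG (its core, which also lies inside the full element) and TGANTCA (an AP-1 site), each searched on both strands.
Pak6, first start (chr2:118663327-118663596, plus strand): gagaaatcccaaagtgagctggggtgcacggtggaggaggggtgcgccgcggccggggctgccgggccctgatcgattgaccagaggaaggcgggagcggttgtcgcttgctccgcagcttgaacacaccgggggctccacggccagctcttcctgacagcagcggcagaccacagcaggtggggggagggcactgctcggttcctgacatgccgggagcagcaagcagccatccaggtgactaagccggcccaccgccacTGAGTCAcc
Pak6, second start (chr2:118676996-118677265, plus strand): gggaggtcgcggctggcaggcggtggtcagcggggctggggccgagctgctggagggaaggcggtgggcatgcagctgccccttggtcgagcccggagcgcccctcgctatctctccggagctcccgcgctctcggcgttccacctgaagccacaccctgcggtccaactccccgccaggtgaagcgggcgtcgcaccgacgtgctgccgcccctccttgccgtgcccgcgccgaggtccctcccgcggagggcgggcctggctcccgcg
Limk1, first start (chr5:134688571-134688840, minus strand): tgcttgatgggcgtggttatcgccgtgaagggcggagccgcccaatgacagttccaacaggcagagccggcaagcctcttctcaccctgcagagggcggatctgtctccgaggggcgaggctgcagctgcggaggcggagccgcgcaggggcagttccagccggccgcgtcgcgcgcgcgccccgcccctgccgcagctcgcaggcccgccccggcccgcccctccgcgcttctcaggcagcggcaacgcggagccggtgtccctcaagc
Pak1, first start (chr7:97788291-97788560, plus strand): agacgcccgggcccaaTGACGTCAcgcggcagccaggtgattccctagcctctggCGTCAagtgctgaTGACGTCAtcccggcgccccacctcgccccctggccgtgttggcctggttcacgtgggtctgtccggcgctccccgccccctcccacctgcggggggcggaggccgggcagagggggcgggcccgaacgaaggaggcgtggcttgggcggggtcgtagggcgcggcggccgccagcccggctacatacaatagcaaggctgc
The first Pak6 window held 1 match to the AP-1 letters, beginning 11 bases after the start base, and the second window held none of the 3 motifs. Both Limk1 windows in the table held none. The first Pak1 window held 2 full cyclic AMP response elements, beginning at positions -234 and -182 from the start, and 5 matches to its core, of which 4 lay inside the full elements. Among the other members, a Limk2 window held 1 match to the AP-1 letters and the rest held no match. Of all 32851 windows in the table, 1.79% held TGACGTCA, 20.8% held TGACG and 7.81% held TGANTCA, so the full element is the rarest of the 3. A match in letters does not show that a factor binds there.

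Pak6 was the member with the fewest reads over the 6 libraries and the largest difference. It had 60.5, 136.3 and 49.8 normalized counts in shYthdf2 libraries 1, 2 and 4. In shCtrl libraries 1, 2 and 4 it had 581.3, 355.6 and 576.4. The groups did not overlap, and in both groups library 2 lay towards the other group. On average shYthdf2 held 82.2 ± 47.2 (SD, n = 3) against 504.4 ± 128.9 (SD, n = 3) in shCtrl, or 16.3% of the control level. The fitted log2 fold change was -2.61 (SE 0.40, 95% confidence interval -3.55 to -1.67), which is 6.11-fold lower with an interval of 3.19 to 11.7. By this change Pak6 was 25th from the lowest of the 17214 genes. Against the control library of the same number, Pak6 stood at 10.4% in library 1, 8.63% in library 4 and 38.3% in library 2. Ythdf2 stood at 81.0%, 79.7% and 47.9% of the same-numbered control in libraries 1, 4 and 2. The pair with the lowest Ythdf2, that of library 2, was also the pair with the smallest Pak6 difference. Pairs 1 and 4 were close for both genes, so this rests on 1 pair, and a link was not tested. In bulk libraries such as these, fewer cells of a type and less RNA per cell cannot be told apart.

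The size of the Pak6 change was steadier than its call. Its adjusted p was 0.0496 over all genes tested (edgeR), where 104 genes or 0.604% passed in either direction, and Pak6 was the 1 member among them. Since the genes were chosen from this contrast, nothing is read from that count. With the replicate number as a block, the Pak6 change was -2.68 on the log2 scale (adjusted p = 0.0563, edgeR), and 0 members passed against 1.35% of all genes. By limma-voom the adjusted p was 0.0532. Pak6 passed with DESeq2 (adjusted p = 5.01e-09, with 7.67% of all genes passing). By edgeR it passed with no low-count filter (0.001, 639 of 32277 genes) and a term for the number 2 libraries (0.0131, 3799 of 17214). RLE factors, library size alone and at least 10 counts in every library gave 0.0463 to 0.049 by edgeR, with 105 to 131 genes passing. Leaving out library 1 or 4 of either group gave adjusted p-values of 0.241 to 0.286 by edgeR, with log2 fold changes of -2.51 to -2.35, and 0 of all genes passed in those fits, where 1986 to 2120 had an unadjusted p under 0.05. Without library 2 of shCtrl it was 0.00681, and without library 2 of shYthdf2 0.0235. With libraries 1 and 4 of each group summed, a setting added after the data were seen, the log2 fold change was -2.31 and the adjusted p 0.921, and 0 of 18488 genes passed, with 937 at an unadjusted p under 0.05. With both number 2 libraries removed the log2 fold change was -3.39, and the adjusted p was 5.99e-12 (edgeR) in a fit where 52.7% of all genes passed. Over all alternatives the log2 fold change lay between -3.39 and -2.31.

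**Figure D1:**
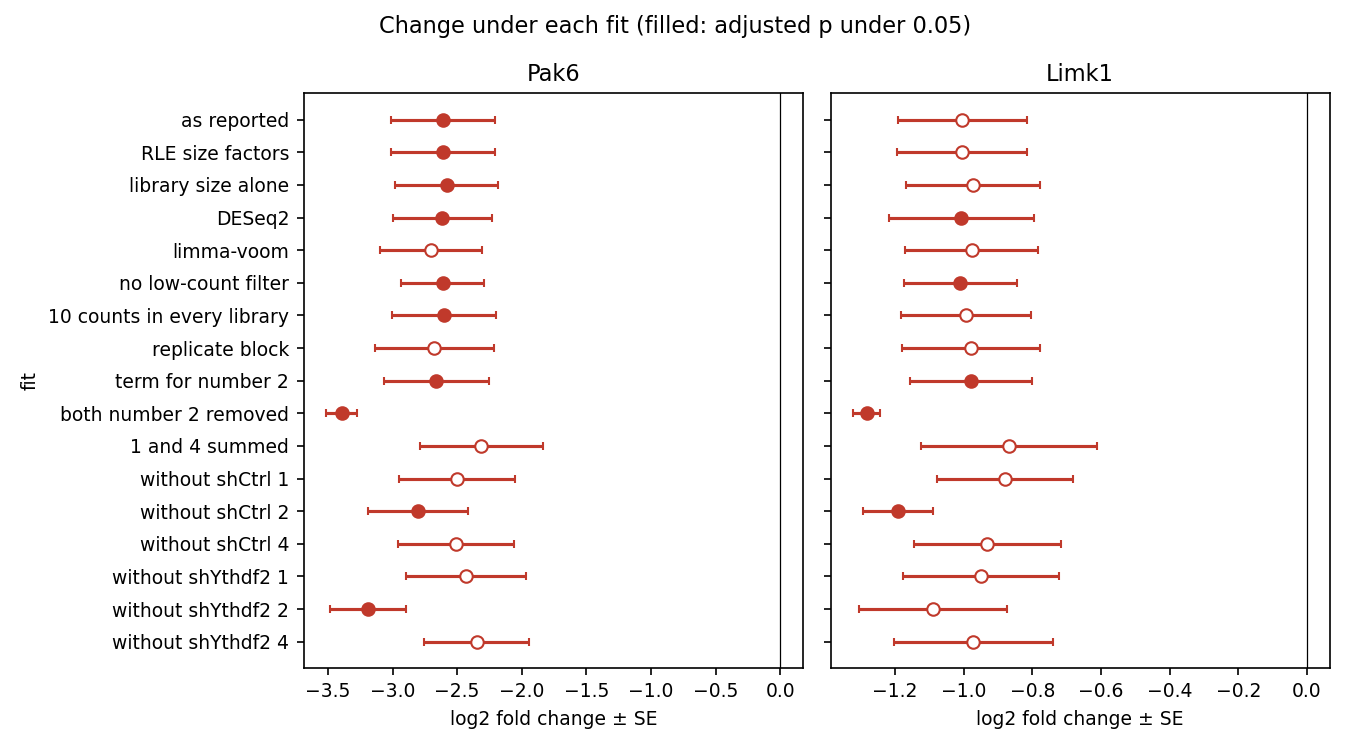
Log2 fold change of Pak6 (left) and Limk1 (right) in shYthdf2 against shCtrl under each fit (vertical axis), with bars of 1 SE and filled points where the adjusted p was under 0.05. Every point lies below 0, between -3.39 and -2.31 for Pak6 and between -1.28 and -0.87 for Limk1, while the filling changes from fit to fit.

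Pak4, the other group II member, is broadly used across tissues and acts on Lim kinase. It had 303.5, 341.4 and 329.2 normalized counts in shYthdf2 libraries 1, 2 and 4, and 438.0, 383.6 and 346.3 in shCtrl. Its groups did not overlap, but the gap between the highest shYthdf2 and the lowest shCtrl library was small beside the spread within shCtrl. Its log2 fold change was -0.26 (SE 0.14, 95% confidence interval -0.59 to 0.06, adjusted p = 0.335 by edgeR). Without both number 2 libraries the adjusted p was 0.0224, in a fit where 52.7% of all genes passed. Pak4 shares 39 bases of exon with Samd4b on the same strand. Pak7, the remaining group II Pak and not one of the chosen genes, lay the other way, with 1777, 1852 and 1749.9 normalized counts in shYthdf2 and 1378, 1681 and 1463 in shCtrl. Its log2 fold change was 0.25 (SE 0.10, adjusted p = 0.236 by edgeR), and without both number 2 libraries the adjusted p was 3.59e-05.

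The group I Paks stood close to their control levels. Pak1, the main Pak of these cells by read count, had 5289.6, 6369 and 5359.7 normalized counts in shYthdf2 libraries 1, 2 and 4, and 5415, 7122 and 5504 in shCtrl. In both groups library 2 was the highest. Its log2 fold change was -0.08 (95% confidence interval -0.42 to 0.25). Pak2, the member found in most cell types, had 1118 to 1199 in shYthdf2 and 1161 to 1218.5 in shCtrl, with a log2 fold change of -0.06 (95% confidence interval -0.27 to 0.15). Pak3, a Pak known from inherited intellectual disability, had 1120.0 to 1197 in shYthdf2 and 1099 to 1304 in shCtrl, with a log2 fold change of -0.03 (95% confidence interval -0.27 to 0.21). The intervals leave room for changes of up to about 0.4 on the log2 scale for Pak1 and 0.3 for Pak2 and Pak3, and the Pak6 estimate lay outside each of them. The sign turned without library 2 of shCtrl for Pak1 and Pak3, and also with library size alone and without both number 2 libraries for Pak3.

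Within a library, Pak6 was compared with its relatives directly, as its log2 normalized count minus the mean of those of the other 9 members. This difference was -4.99, -3.85 and -5.29 in shYthdf2 libraries 1, 2 and 4, and -1.97, -2.57 and -1.94 in shCtrl. It fell by 2.55 between the group means, close to the change of Pak6 alone. In log2 normalized counts, Pak6 was above Pak4 by 0.41 and 0.74 in shCtrl libraries 1 and 4. In shCtrl library 2 it was lower, by a difference of -0.11. In shYthdf2 it was below Pak4 in all libraries, by differences of -2.73 to -1.32. These counts are not scaled by gene length. Per kilobase of exon, Pak6 lay below Pak4 in shCtrl library 1, at 5.896 against 6.549. The order in the other libraries stayed the same. These are descriptions of the genes that were chosen, with no test.

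**Figure D2:**
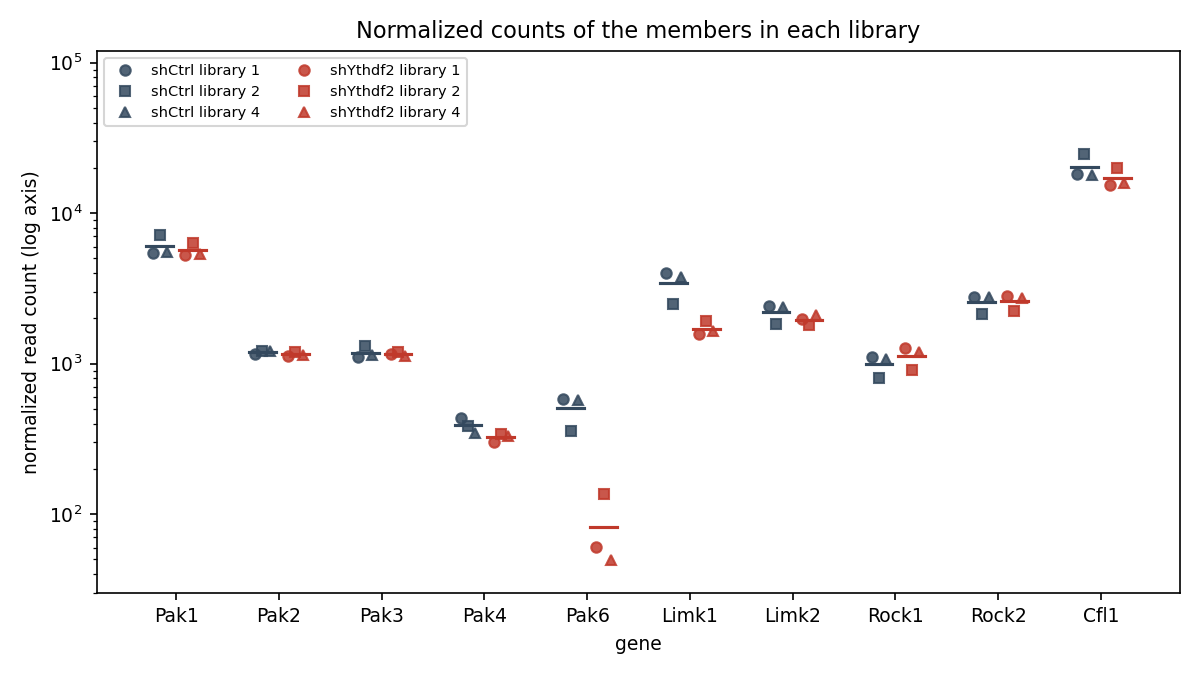
Normalized read count (log axis) of each member in every library, shCtrl in dark blue and shYthdf2 in red, with circles, squares and triangles for libraries 1, 2 and 4 and bars at the group means. The red points of Pak6, at 49.8 to 136.3, lie below its dark points at 355.6 to 581.3, and those of Limk1 lie below its dark points, while the points of Pak1, Pak2, Pak3, Limk2, Rock1, Rock2 and Cfl1 overlap between the groups.

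Limk1, the neuronal Lim kinase that phosphorylates cofilin, was the other member with a large difference. It had 1582, 1909.8 and 1639 normalized counts in shYthdf2 libraries 1, 2 and 4, and 4019, 2480.2 and 3790.1 in shCtrl. The groups did not overlap, and again library 2 of shCtrl lay nearest to shYthdf2. On average shYthdf2 held 1710.2 ± 175 (SD, n = 3) against 3429.9 ± 830.4 (SD, n = 3) in shCtrl, or 49.9% of the control level. Its log2 fold change was -1.004 (SE 0.19, 95% confidence interval -1.44 to -0.56), and 2.01% of the genes tested had a lower one. The adjusted p was 0.0585 by edgeR, so Limk1 did not pass the threshold. It passed with DESeq2 (adjusted p = 1.70e-04, with 7.67% of all genes passing) and with no filter on low counts (0.00499 by edgeR, 639 of 32277 genes passing). By edgeR it also passed with a term for the number 2 libraries (0.019, 3799 of 17214 genes). The same held without library 2 of shCtrl (0.00182, 3239 of 17734) and without both number 2 libraries (1.64e-12, 52.7% of genes). It did not pass in the other alternatives, among them limma-voom (adjusted p = 0.070), the replicate block (0.065 by edgeR) and RLE factors (0.0581). Leaving out library 1 or 4 of either group gave 0.248 to 0.303, and libraries 1 and 4 summed gave 0.921. Its paralogue Limk2, which is expressed more widely, had 1978, 1803 and 2107 in shYthdf2 and 2403, 1845 and 2366 in shCtrl, so the groups overlapped. The log2 fold change of Limk2 was -0.17 (SE 0.13, 95% confidence interval -0.47 to 0.13, adjusted p = 0.513 by edgeR). Without both number 2 libraries it was -0.23 with an adjusted p of 1.43e-04 (edgeR).

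Rock1 and Rock2 had means of 113% and 101% of shCtrl. Rock1 had 1277, 911.9 and 1189.9 normalized counts in shYthdf2 libraries 1, 2 and 4, and 1108, 799.1 and 1079 in shCtrl. In each numbered pair the shYthdf2 library was the higher, at 110% to 115% of its control, although the groups overlapped, with both number 2 libraries low. The fitted change was 0.18 on the log2 scale (SE 0.18, 95% confidence interval -0.23 to 0.59, adjusted p = 0.615 by edgeR). Without both number 2 libraries it was 0.17 with an adjusted p of 0.0166 (edgeR), in a fit where 52.7% of all genes passed. Rock2 had 2806, 2225 and 2748 in shYthdf2 and 2779.9, 2146 and 2789.7 in shCtrl. The fitted change was 0.01 on the log2 scale (SE 0.14, 95% confidence interval -0.32 to 0.35), and its sign turned in 4 of the alternatives, among them without both number 2 libraries.

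Cfl1, the cofilin gene of non-muscle cells and the end of this chain, had the most reads of the members. It had 15378, 20029.6 and 15745 normalized counts in shYthdf2 libraries 1, 2 and 4, and 18235, 24641 and 17977 in shCtrl. Each shYthdf2 library lay below its same-numbered control, at 81.3% to 87.6%, while the groups overlapped through library 2 of shYthdf2. The log2 fold change was -0.25 (SE 0.17, 95% confidence interval -0.64 to 0.14, adjusted p = 0.450 by edgeR). With a term for the number 2 libraries the adjusted p was 0.020, and without them it was 1.04e-05. In those fits 3799 of 17214 genes and 52.7% of all genes passed. These are mRNA levels, and the phosphorylation through which the kinases act on cofilin was not measured.

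Over the 10 members, all of which passed the filter on low counts, 2 had a positive and 8 a negative log2 fold change. The median was -0.13, against 0.01 for all genes tested. Groups did not overlap for 3 members, Pak4, Pak6 and Limk1, where 26.0% of all genes did not overlap in either direction. All 3 were lower in shYthdf2, and 13.4% of all genes were. As the set was chosen from this contrast, nothing is read from these counts. Of the members, 8 had a log2 fold change within 0.3 of 0.

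**Figure D3:**
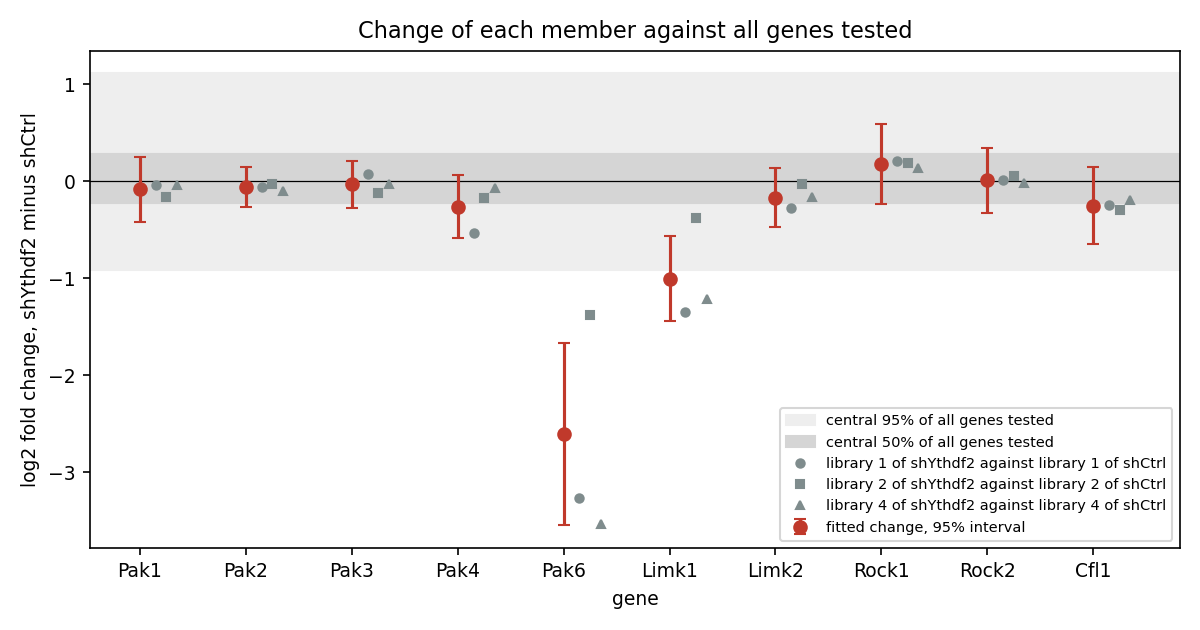
Log2 fold change of each member (red, with 95% confidence interval) and the difference of each numbered pair of libraries (grey circle, square and triangle for libraries 1, 2 and 4). The bands hold the central 95% and 50% of the 17214 genes tested. Pak6 at -2.61 and Limk1 at -1.004 lie below the wider band, which ends at -0.92, and the other members lie inside it.

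Levels of different genes were compared as normalized CPM (counts scaled to 1 common library total) per kilobase of exon, with the exons of all transcripts of a gene joined. In shCtrl the order was Cfl1 (377 ± 70.2, SD, n = 3), Pak1 (80.6 ± 12.9), Limk1 (25.3 ± 6.13), Limk2 (19.1 ± 2.70), Rock2 (9.78 ± 1.40), Pak2 (9.33 ± 0.26), Pak3 (6.53 ± 0.60), Pak4 (5.82 ± 0.69), Pak6 (5.12 ± 1.31) and Rock1 (2.91 ± 0.50). The libraries of Limk1 and Limk2 overlapped, as did those of Rock2 and Pak2, of Pak3 and Pak4, and of Pak4 and Pak6. The other neighbours in this order were apart. With the longest transcript as the length, 6 of the 10 places stayed as they were, Rock1 moved up to the 7th place, and Pak6 became the lowest. In shYthdf2, Pak6 had a level of 0.83 ± 0.48 (SD, n = 3), the lowest of the members, and Limk2 at 17.01 ± 1.32 stood above Limk1 at 12.6 ± 1.29 with no overlap of their libraries. With the longest transcript these last libraries overlapped.

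The make-up of each family shows the same values as shares. Pak6 gave 5.30%, 2.67% and 5.20% of the summed level per kilobase of the Pak genes, Pak7 included, in shCtrl libraries 1, 2 and 4, and 0.581%, 1.13% and 0.474% in shYthdf2. Pak1 gave most of that sum in every library, with 65.2% to 70.6% in shCtrl and 67.2% to 69.5% in shYthdf2. Within group II, Pak6 gave 15.7% to 25.5% in shCtrl and 2.57% to 6.42% in shYthdf2, where Pak7 gave 69.9% to 73.7%. Limk1 gave 58.8%, 53.4% and 57.7% of the Lim kinase level in shCtrl libraries 1, 2 and 4, and 40.5%, 47.4% and 39.8% in shYthdf2, so Limk2 had the larger share in every shYthdf2 library and Limk1 in every shCtrl library. With the longest transcript as the length, this order did not hold in library 2 of shYthdf2, where Limk1 had a level of 29.1 and Limk2 of 24.8. Rock1 gave 22.2% to 23.4% of the summed level of Rock1 and Rock2 in shCtrl and 23.9% to 25.9% in shYthdf2.

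**Figure D4:**
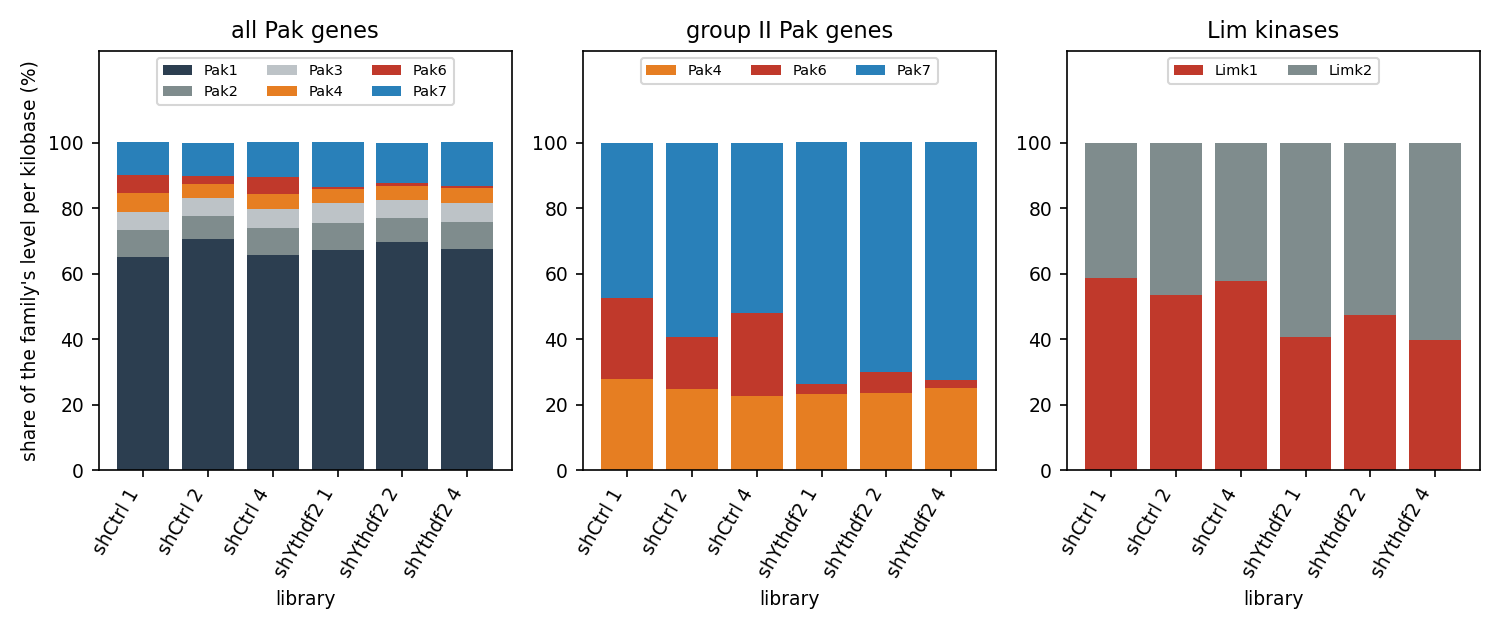
Share (%) of the summed level per kilobase of exon that each gene gave in each library, for all Pak genes, the group II Pak genes and the Lim kinases. The Pak6 share of group II is 15.7% to 25.5% in the shCtrl bars and 2.57% to 6.42% in the shYthdf2 bars, and the Limk1 share is above that of Limk2 in every shCtrl bar and below it in every shYthdf2 bar.

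Other genes of the pathway were taken from a list of upstream regulators, partners and downstream actin proteins, of which 127 were found in the table and 125 were tested. Of these, 52 had a positive and 73 a negative log2 fold change, with a median of -0.07. In all, 0 passed the adjusted threshold upwards and 1 downwards, and 12 (9.6%) and 18 (14.4%) had an unadjusted p under 0.05 upwards and downwards (edgeR), against 9.5% and 10.6% of all genes tested. Rac1 and Cdc42, which bind the Paks, had log2 fold changes of -0.11 (SE 0.10) and 0.00 (SE 0.14).

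The gene that passed was Cfl2, the cofilin known from muscle. It had 1167, 1021 and 1135 normalized counts in shYthdf2 libraries 1, 2 and 4, and 2053, 1867 and 2087 in shCtrl. The groups did not overlap, and its shYthdf2 libraries stood at 56.9%, 54.7% and 54.4% of the same-numbered controls, a narrower range over the pairs than that of Pak6 or Limk1. Its log2 fold change was -0.85 (SE 0.10, adjusted p = 0.0393 by edgeR). It was not called with libraries 1 and 4 summed (adjusted p = 0.921 by edgeR), nor without library 1 or 4 of either group. The third gene of the family, Dstn, which encodes destrin, had a log2 fold change of -0.08 (SE 0.16). Among the phosphatases that switch cofilin back on, Ssh1 had a log2 fold change of 0.09 (SE 0.11), Ssh2 of 0.23 (SE 0.09) and Ssh3 of 0.05 (SE 0.36).

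Among the 21 Rac and Cdc42 exchange factors and Pak partners, 7 had an unadjusted p under 0.05 downwards and 1 upwards by edgeR. These are 33.3% and 4.76% of them, beside 10.6% and 9.5% of all genes. The downward share was the largest of the pathway classes. Yet 11 of the 21 had a positive and 10 a negative log2 fold change, with a median of 0.05, and 0 passed the adjusted threshold. With limma-voom 0 passed, and with DESeq2 3 did, where 7.67% of all genes passed. Git1, a scaffold that binds Pak through its partner exchange factor, had 2910.7, 2907 and 3079 normalized counts in shYthdf2 and 4892, 4044.5 and 4707 in shCtrl. The Git1 groups did not overlap, and its log2 fold change was -0.62 (SE 0.10, adjusted p = 0.0527 by edgeR). With the replicate block Git1 passed, together with Srgap2 and Cfl2. Cap2, which works with cofilin on actin monomers, had the lowest log2 fold change of the pathway genes at -1.11 (SE 0.22, adjusted p = 0.0651 by edgeR). Diaph3, a formin that nucleates actin, had the highest at 1.35 (SE 0.37, adjusted p = 0.119 by edgeR), from means of 13.4 and 34.2 normalized counts. Git1, Srgap2, Cap2 and Diaph3 were named after their values had been seen.

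**Figure D5:**
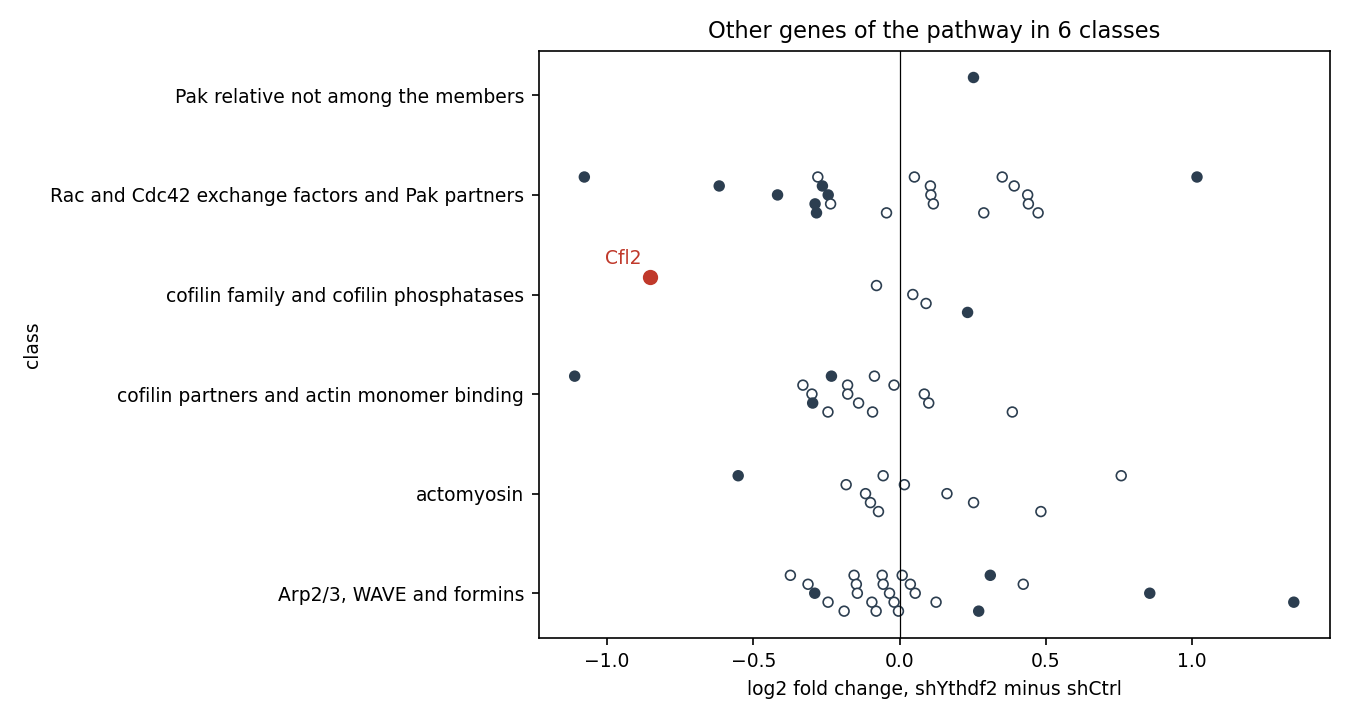
Log2 fold change in shYthdf2 against shCtrl of 77 of the other pathway genes tested, by class. Filled points had an unadjusted p under 0.05, and the red point, Cfl2 at -0.85, passed the adjusted threshold. Points lie on both sides of 0 in each class of more than 1 gene.

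The genes whose pattern over the 6 libraries was most like that of Pak6 were sought by the root mean square difference of log2 normalized counts, each centred on its own mean, among 12556 genes with a mean of at least 50 normalized counts. They were Stac2 (0.210), Fosl2 (0.294), Gm5796 (0.294), Trim66 (0.320) and Mir670hg (0.321). Fosl2, which encodes a subunit of AP-1, had 331.6, 494.1 and 308.1 normalized counts in shYthdf2 libraries 1, 2 and 4 and 2647, 1221 and 2611 in shCtrl. It passed the adjusted threshold with a log2 fold change of -2.51 (SE 0.33, adjusted p = 0.0447 by edgeR). Stac2, Gm5796, Trim66 and Mir670hg did not, with adjusted p-values of 0.0527 to 0.107 by edgeR. As these genes were sought by their likeness to Pak6 over the same libraries, their p-values are no separate test. Among the other members, Limk1 was nearest to Pak6, in place 139 with 0.940, and Pak4 was next, in place 2680 with 1.32. The genes most like Limk1 were Slc6a17 (0.0406), Hdac5 (0.0422), Rab11fip5 (0.0466), Ripor1 (0.0628) and Dnajb2 (0.0632). Slc6a17, a vesicular transporter of neutral amino acids, had 5477, 6506 and 5634 in shYthdf2 and 13930, 8513 and 14041 in shCtrl, and Hdac5 encodes a histone deacetylase that shuttles between cytoplasm and nucleus. Likeness of this kind says nothing of shared control.

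Markers of cell types were summed in each library as CPM of normalized counts. The 12 granule neuron markers summed to 10700 to 10900 in shYthdf2 and 10600 to 11300 in shCtrl, and 0 of 12 passed the adjusted threshold (3 had an unadjusted p under 0.05 by edgeR, and 2 passed with DESeq2), so the marker genes of the labelled cell type were present in every library. The 7 astrocyte markers summed to 308, 712 and 313 in shCtrl libraries 1, 2 and 4 and to 600 to 661 in shYthdf2. The 7 oligodendrocyte lineage markers summed to 258, 867 and 246 in shCtrl and to 669 to 879 in shYthdf2. Vascular and fibroblast markers were higher in both number 2 libraries, with 404 and 319 against 123 to 161 elsewhere. Microglial markers summed to 8.57 to 32.9 in shCtrl and 13.8 to 45.3 in shYthdf2, GABAergic interneuron markers to 403 to 568 in shCtrl and 616 to 758 in shYthdf2, Purkinje cell markers to 94.9 to 106 in shCtrl and 119 to 133 in shYthdf2, proliferating progenitor markers to 74.9 to 111 in shCtrl and 99.5 to 125 in shYthdf2, and unipolar brush cell markers to 544 to 642 in shCtrl and 575 to 616 in shYthdf2. The sums of the interneuron and Purkinje cell markers did not overlap between the groups. Gli1, P2ry12 and Cldn5, from the lists of progenitors, microglia and vascular cells, had under 10 counts in every library. Of those lists, 5 of 6, 5 of 6 and 7 of 8 genes were tested. Of the 59 marker genes tested, 0 passed the adjusted threshold with edgeR or limma-voom, 6 passed with DESeq2, and 9 had an unadjusted p under 0.05 (edgeR). Over all 17214 genes tested, 7.67% passed with DESeq2 and 3461 had an unadjusted p under 0.05 (edgeR). The glial sums were thus low in the shCtrl libraries where Pak6 and Limk1 were high, and the part of the glial, interneuron and Purkinje cell sums in those differences was not tested.

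Features of the transcripts that could touch the counts were described from the longest annotated transcript of each member. Of the 50-base stretches in each transcript, 9.11% of Cfl1, 3.13% of Rock1, 0.737% of Pak4 and 0.55% of Pak6 were shared with other genes. No shared stretches were found for the other members, so counts of Cfl1 and Rock1 are the less certain ones. Cfl1 also shares 468 bases of exon with Snx32 on the opposite strand, and it was not stated whether counting used strand. Pak6 overlaps no annotated gene. GGACT, a common form of the m6A consensus, occurred 1 time in the 4411 bases of Pak6 (0.227 per kilobase) and 2 times in the 3473 bases of Limk1 (0.576), below the median of 1.01 over all genes tested. It occurred 9 times in Limk2 (2.34, above 93.9% of genes). The remaining members were also below that median, from 0.262 per kilobase in Rock2 to 0.871 in Pak2. Limk1 lay within this range, and Pak6 had the lowest density of all members. Whether the density of GGACT goes with the changes was not tested. These letters do not show that a site is methylated.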

How the data were processed

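The authors filtered the reads, aligned them by HISAT and TopHat2 on GRCm38 and counted them per gene by HTSeq, as the study's methods state. The submitters' processing notes name Bowtie 0.12.2 and mm9 instead, and the labels and the methods also name different library kits. The deposited values are whole-number counts per gene without normalization, for 53421 identifiers. Of these, 785 are not Ensembl identifiers, and 52489 were in GENCODE M21. All 6 columns were used.

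Genes were kept by filterByExpr (minimum count 10, minimum total 15). The main test was the edgeR 4.0.16 quasi-likelihood test with TMM factors in R 4.3.3, with Benjamini-Hochberg adjustment over the 17214 genes tested and a threshold of 0.05. SEs are the log2 fold change over the root of F. Totals of 17246821 to 21546595 counts limit the precision of genes with few reads, and errors cover library spread and counting error only. Same-numbered libraries deviated together (r = 0.25, 0.361 and 0.305 for 1, 2 and 4), so the number was tried as a block. Deviations within a group sum to 0, so a shift shared by the number 2 libraries alone also makes r positive for 1 and 4. These r values therefore do not show which of those libraries pair. Other alternatives were RLE factors, library size alone, DESeq2 1.42.0, limma-voom (limma 3.58.1), no filter, at least 10 counts in every library, a term for the number 2 libraries, and leaving out each library or both of number 2. Summing libraries 1 and 4 was added after the data were seen. The scripts were tested on simulated data.

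The members, lists and tests were chosen with earlier results of these data known. Named by rule were all members, Ythdf2, pathway genes past the threshold, the 5 genes most like Pak6 and Limk1 (mean normalized count of 50 or more), and overlapping genes. Also named, outside this rule, were Pak7, Rac1, Cdc42, Dstn, Ssh1, Ssh2 and Ssh3, and the markers Gli1, P2ry12 and Cldn5. Git1, Srgap2, Cap2 and Diaph3 were named after their values had been seen. Some pathway classes are not reported here. Pathway classes, markers and windows were read with Python 3.11.15, pandas 2.3.3 and numpy 2.4.6.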

Additional observations from a re-analysis of the deposited data

How the results depend on the processing

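The log2 fold change of Pak6 kept its direction in all alternatives, from -3.39 without both number 2 libraries to -2.31 with libraries 1 and 4 summed. It lost its call with limma-voom (-2.70), with the replicate block (-2.68) and with libraries 1 and 4 summed (-2.31). Its call was also lost without library 1 or 4 of either group (-2.51 to -2.35). Over the libraries left out 1 at a time the log2 fold change ranged from -3.19 to -2.35. No member's sign changed with a call, but Pak1, Pak3 and Rock2 changed sign in 1, 3 and 4 alternatives. Members past the threshold, 1 in the reported fit, numbered 2 with DESeq2, 0 with limma-voom, 2 with no filter, 0 with the replicate block, 3 with a term for the number 2 libraries, 6 without both number 2 libraries, 0 with libraries 1 and 4 summed, and 0 to 2 with 1 library left out. All genes past it, 104 in the reported fit, numbered 1321 with DESeq2, 24 with limma-voom, 639 with no filter, 232 with the replicate block, 3799 with the term, 9186 without both number 2 libraries, 0 with libraries 1 and 4 summed, and 0 (without library 1 or 4 of either group) to 3239 (without library 2 of shCtrl) with 1 library left out. Pathway genes past it, 1 in the reported fit, numbered 10 with DESeq2, 4 with no filter, 3 with the replicate block, 39 with the term, 86 without both number 2 libraries, 0 with libraries 1 and 4 summed, and 0 to 34 with 1 library left out. The block changed no other call among the members. The cause of these shifts was not tested. The change of Pak6 relative to the other members stayed between -3.18 and -2.26. By longest transcript, 6 of 10 places in the order of shCtrl levels stayed. Where both groups keep 2 libraries the fit rests on few degrees of freedom, and the counts of genes such as Diaph3 limit what can be seen.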
